A study of Caenorhabditis elegans with 4 samples.

Results

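The binding regions of a GFP-tagged homeodomain transcription factor on the X chromosome of Caenorhabditis elegans were described from peak lists of a chromatin immunoprecipitation and sequencing (ChIP-seq) study. The combined peak list assigned 845 of its 6333 peaks to X, and these 845 regions were taken as they stand, with no filter. The 4294 combined peaks on chromosomes II, III, IV and V served as background. Chromosome I was not compared with X, but its peaks counted where the replicate 1 list was cut to the length of the replicate 2 list.

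The study profiled whole hermaphrodite larvae of the L3 stage, kept at 20 degrees Celsius and crosslinked in 2% formaldehyde. All worms were of strain OP241. Their background allele is unc119(ed3), and they carry wgIs241, a transgene introduced by bombardment that holds unc119 and ceh-38 fused to the tags TY1, EGFP and FLAG. There were 2 ChIP samples, precipitated with a goat anti-GFP antibody, and 2 input samples of total chromatin from the same strain, which were not analysed here. The sample titles name CEH-28 (of the NK-2 class) but strain and genotype name ceh-38 (of the ONECUT class), so the protein is called the tagged factor here. Whole animals of a single transgenic strain were used, and no strain without the tag was analysed here, so the cell types that carry each binding event are not resolved. The labels do not state that the replicates were separate cultures, and differences between them may be technical.

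ONECUT factors bind DNA through a cut domain and a homeodomain, and in C. elegans the cut homeobox genes, ceh-38 among them, act in the expression of genes shared by all neurons. The X chromosome of C. elegans differs from the autosomes in several ways. In hermaphrodites, which carry a pair of X chromosomes, a condensin-based dosage compensation complex spreads along X and lowers its transcription. X is also poor in genes expressed in the germline, and the division of autosomes into a gene-dense centre and repeat-rich arms is less marked on it.

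Each region is given by its position on the WormBase WS180 build and by −log10 q, where q is the peak caller's corrected p-value. These q-values are the authors' and serve to rank peaks within a list and to set the lists side by side at the same position. Read depth is unknown, since the lists give neither read counts nor summits. A combined peak was counted as supported by a replicate where it overlapped a peak of that replicate's own list by at least 1 bp. The replicate 1 list held 483 peaks on X and the replicate 2 list 417.

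The most significant X regions were 1077 to 1729 bp wide and present in every list. The peak from 2996089 to 2997783 had the lowest q of the chromosome: its −log10 q was 323.3 for the combined data, 223.1 for replicate 1 and 170.6 for replicate 2. The combined value is the smallest number that double precision stores, so it is a limit of storage. The peak from 8035461 to 8037084 had 314.4, 288.1 and 264.8 in the same order and was the most significant X peak of each replicate. The peak from 4208261 to 4209989 followed with 291.1, 213.8 and 185.8. In all 3 regions replicate 1 gave the lower q.

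The next 7 regions showed the same order of the lists. At 14525252 to 14526571 the combined −log10 q was 280.9, with 219.7 in replicate 1 and 160.7 in replicate 2. At 12362496 to 12363789 the values were 276.4, 216.7 and 197.7, and at 11093512 to 11094713 they were 263.8, 225.2 and 199.6. These regions were between 1202 and 1320 bp wide. The peak from 6296014 to 6297120 had 233.3, 167.5 and 139.1, and the peak from 11936831 to 11937940 had 227.9, 178.2 and 166.0. The peak from 9465272 to 9466348 had 221.96, 179.7 and 150.4, and the peak from 1626627 to 1627750 had 212.9, 166.0 and 132.8. All 10 regions had a lower q in replicate 1 than in replicate 2, and the left, middle and right segments of the chromosome, 3 stretches of equal length, each held some of them.

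Most X peaks were far weaker than these. The median −log10 q of the 845 peaks was 6.73, with quartiles of 4.59 and 13.3, and 22 peaks lay above 100. All 134 X peaks with a −log10 q above 20 were supported by both replicates. Such support was not particular to X: above 13.3, both replicates supported 98.1% of X peaks and 97.9% of peaks on II to V. Among the 337 X peaks supported by both replicates, 332 (98.5%) had a lower q in the combined list than in either replicate, and the combined −log10 q was a median of 1.72 times that of the stronger replicate. These values were not computed for II to V, so they do not set X apart. At the weak end of that class, the peak from 3803377 to 3803675 had a combined value of only 4.78, with 4.26 in replicate 1 and 4.997 in replicate 2.

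Support by the replicates was set against the background of II to V. Of the 845 X peaks, 337 (39.9%, exact 95% interval 36.6 to 43.3) were supported by both replicates, against 38.5% of the background peaks. By Fisher's exact test, two-sided, this difference did not pass (adjusted p = 0.463, Benjamini-Hochberg over 5 comparisons of X with II to V). Among combined peaks whose −log10 q reached the median of X and II to V, 6.95, the shares were 79.3% and 73.4%, and the difference passed (Fisher's exact test, adjusted p = 0.0339). The X share of all peaks lay between those of the single autosomes, which ran from 33.5% on II to 42.1% on III. A further 321 X peaks (38.0%, 34.7 to 41.4) were supported by neither replicate, against 33.8% (Fisher's exact test, adjusted p = 0.0375). Chromosome II had a slightly higher share of such peaks, at 38.2%. The call was lost in 6 of 10 alternatives by the same exact test: without chromosome III (adjusted p = 0.237), without chromosome IV (0.0708), with a 50% reciprocal overlap (0.249), with joined peaks (0.172), with lists of equal length (0.223) and among peaks that reached the median −log10 q, where the shares were 4.15% and 4.17% (adjusted p = 1). Neighbouring peaks are not independent, so the p-values here and below, which count each peak once, are likely too small.

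X differed from the autosomes in the peaks supported by a single replicate. Replicate 1 alone supported 120 X peaks (14.2%, exact 95% interval 11.9 to 16.7), against 22.4% on II to V. Replicate 2 alone supported 67 (7.93%, 6.20 to 9.96), against 5.31%. Both shares lay outside the range of the 4 autosomes, which was 21.2% to 23.6% for replicate 1 alone and 4.71% to 6.25% for replicate 2 alone. Of the 187 X peaks with a single supporting replicate, 35.8% came from replicate 2, against 19.2% of the 1189 such peaks on II to V. Fisher's exact test gave adjusted p-values of 1.08e-07, 0.00447 and 1.79e-06 for the 3 comparisons. The comparisons were chosen after their values were seen and adjusted over 3. Each replicate is a single library, so the p-values here and below do not measure the spread between libraries. The excess of peaks with replicate 2 support alone did not pass when a 50% reciprocal overlap (adjusted p = 0.0668) or centres within 100 bp (adjusted p = 0.0605) were required, by the same exact test.

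**Figure D1:**
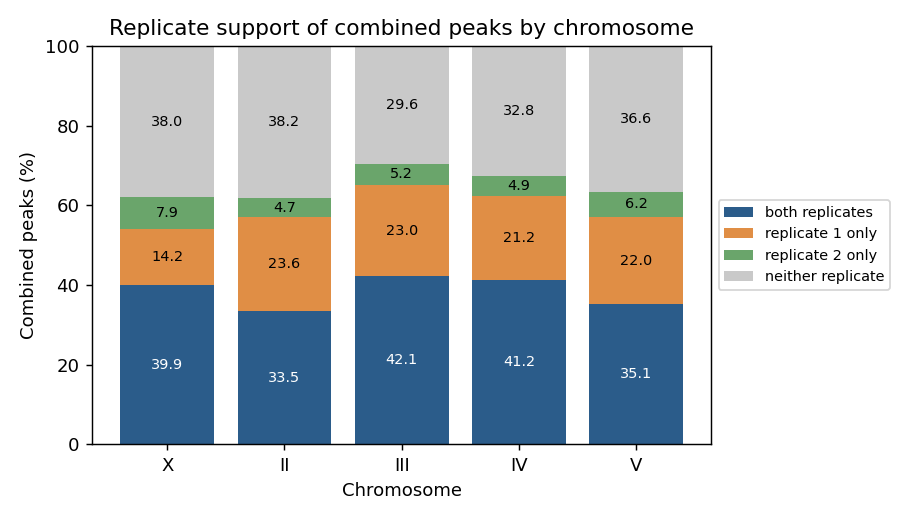
Share of combined peaks (%) on X and on chromosomes II to V that overlapped peaks of both replicates, of replicate 1 only, of replicate 2 only or of neither. The part of the bar for replicate 1 only is 14.2% on X and at least 21.2% on each of the 4 autosomes, and the part for replicate 2 only is 7.93% on X and at most 6.25% on the autosomes.

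The replicate lists showed the same shift in their own numbers. This is not separate evidence, since support was read from these same lists. Replicate 2 held 0.863 times as many X peaks as replicate 1, whereas on II, III, IV and V the ratio was 0.643, 0.693, 0.696 and 0.690. Of the replicate 1 peaks on X, 345 of 483 (71.4%) overlapped a replicate 2 peak, above the 57.4% to 62.7% of the single autosomes. Of the replicate 2 peaks on X, 341 of 417 (81.8%) overlapped a replicate 1 peak, below the 84.0% to 88.6% of the single autosomes. With the replicate 1 list shortened to its peaks of lowest q, as many as replicate 2 had over the genome, replicate 1 kept 310 peaks on X and replicate 2 had 417, a ratio of 1.35. On the autosomes that ratio ran from 0.927 on III to 1.02 on V.

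The q-values of peaks found in both replicates shifted in the same direction. They come from the same lists and libraries, so this is not separate evidence either. Replicate 1 peaks were matched to the most significant replicate 2 peak that they overlapped. Replicate 1 had the lower q in 180 of the 345 X pairs (52.2%), against 68.4% of the 1735 pairs on II to V (p = 1.39e-08 by Fisher's exact test, two-sided, chosen after the values were seen). On the single autosomes the share ran from 66.2% on V to 71.5% on III. The median ratio of −log10 q in replicate 2 to that in replicate 1 was 0.986 on X and between 0.826 and 0.831 on the 4 autosomes. Whether depth or the input of either replicate moves with these shifts was not tested.

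Pairs were also grouped by the geometric mean of both −log10 q values, as a description with no test between the groups. Up to a mean of 10, replicate 1 had the lower q in 100 of 210 X pairs (47.6%), against 64.0% on II to V. Between 10 and 50 the shares were 54.1% of 111 X pairs and 72.9%. Above 50 they were 83.3% of 24 X pairs and 85.8%. The median ratio of −log10 q in replicate 2 to that in replicate 1 was higher on X in every group, at 1.02, 0.982 and 0.851 from weak to strong, against 0.859, 0.801 and 0.753 on II to V. Across the 345 X pairs, Spearman's rho was 0.84 for −log10 q and 0.82 for width, as a description of peaks that share the same pair of libraries.

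**Figure D2:**
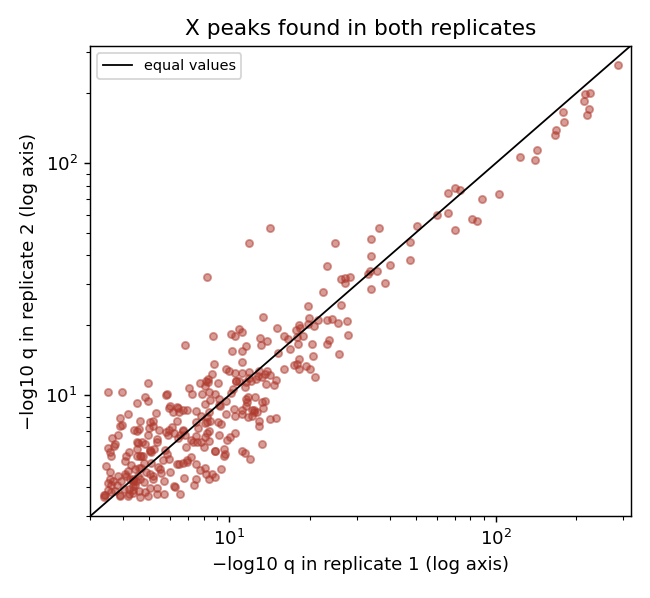
−log10 q of the 345 pairs of overlapping X peaks in replicate 1 (horizontal, log axis) and replicate 2 (vertical, log axis), each point a pair and the line equal values. Weak pairs lie on both sides of the line, and 20 of the 24 pairs with a geometric mean above 50 lie below it, where replicate 1 has the lower q.

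Support was also read within classes of similar q, made from the quartiles of −log10 q over X and II to V. In the class between 6.95 and 13.3, 118 of 199 X peaks (59.3%) were supported by both replicates, against 49.2% on II to V. In that class 17.1% of X peaks had support in replicate 1 alone, against 34.3%, and 15.1% had support in replicate 2 alone, against 8.20%. In the weakest class, up to 4.56, none of the 205 X peaks had both replicates behind it, which allows a share of up to 1.78% (exact interval). The share on II to V, 8 of 1080 peaks (0.741%), lay within that interval. Neither replicate supported 90.7% of the X peaks of this class, against 80.3% on II to V. In the strongest class, above 13.3, 98.1% of the X peaks and 97.9% of the background peaks were supported by both. These shares are given as a description.

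The strongest X peaks with incomplete support were moderate in q. Among peaks with support in a single replicate, the lowest q was at 6521802 to 6523135, where the combined −log10 q was 17.6 and that of replicate 2 was 6.74. The peak from 10331805 to 10333734 had 15.4 and 4.06 in the same lists, and the peak from 13745436 to 13746445 had 13.9 in the combined list and 3.95 in replicate 1. Among peaks with support in neither, the lowest q was at 3816288 to 3817623, with 9.25. Next were 12656417 to 12656997 with 8.93 and 6662323 to 6662834 with 8.31.

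Nearly all replicate peaks on X were recovered in the combined list. A combined peak overlapped 467 of the 483 replicate 1 peaks (96.7%) and 412 of the 417 replicate 2 peaks (98.8%). The shares on II to V were close to these, at 94.1% of replicate 1 peaks and 97.9% of replicate 2 peaks. The strongest that was missed lay at 2287925 to 2288831 in replicate 1, with a −log10 q of 6.14, and at 4606281 to 4606784 in replicate 2, with 3.95. All 345 replicate 1 peaks on X that were shared with replicate 2 had a combined peak, and on II to V 1717 of the 1735 shared peaks had one.

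X peaks were wider than autosomal peaks in each list. The median X peak spanned 497 bp among combined peaks (quartiles 352 and 711 bp), 450 bp among those of replicate 1 and 562 bp among those of replicate 2, or 506 ± 79.2 bp over the replicates (SD, n = 2). Each of these medians was above the highest autosomal median of the same list, which was that of chromosome II at 430.5, 408 and 513.5 bp. The X medians of the replicates differed from each other by more than X and II did within a list, so chromosomes were compared within a list only.

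**Figure D3:**
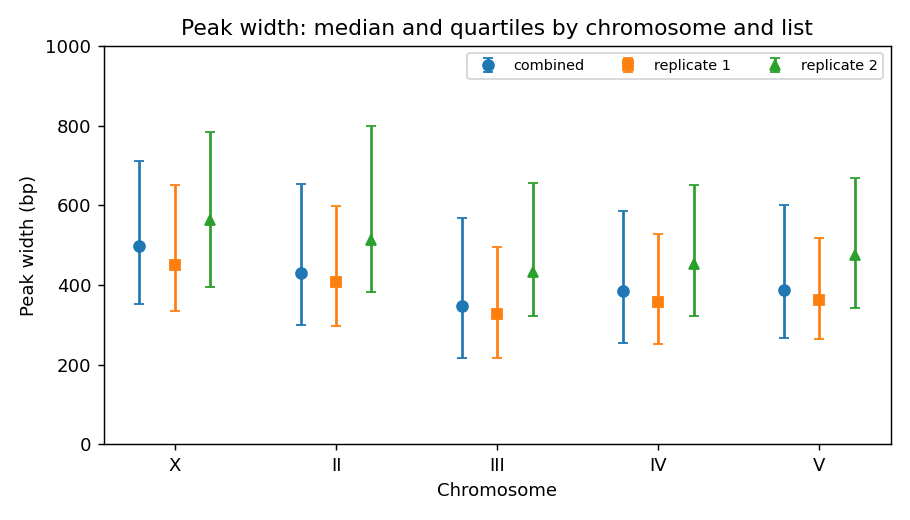
Peak width (bp) by chromosome, with symbols at the median and bars from the lower to the upper quartile, for the combined, replicate 1 and replicate 2 lists. In each list the X median (497, 450 and 562 bp) is the highest of the 5 chromosomes, and the quartile ranges overlap.

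Peaks of 1 kb or more were counted to test the width difference. They made up 109 of the 845 X peaks (12.9%, exact 95% interval 10.7 to 15.3), against 7.89% on II to V (Fisher's exact test, adjusted p = 3.50e-05). The highest autosomal share was 9.69%, on II. In replicate 1 the shares were 11.0% on X and 4.84% on II to V, and in replicate 2 they were 16.5% and 11.0%, both past Fisher's exact test (adjusted p = 2.34e-06 and 0.00816). Chromosome II again had the highest autosomal share, at 6.30% in replicate 1 and 15.7% in replicate 2, so X stood little above II in replicate 2. Without the peaks narrower than 50 bp, of which X had 9 and II to V 99, the difference was 4.96 percentage points (adjusted p = 5.27e-05), by the same exact test. When peaks with gaps of 2 kb or less were joined before counting, the shares were 27.4% and 25.8% and the difference did not pass (adjusted p = 0.645), by the same exact test.

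The difference in width appeared at every level of support and strength. Peaks supported by both replicates had a median width of 695 bp on X and 595 bp on II to V. With replicate 1 alone the medians were 395.5 and 310 bp, with replicate 2 alone 503 and 400.5 bp, and with neither 369 and 262 bp. In each of these classes the X median was above that of every single autosome. In the quartile classes of −log10 q, from weakest to strongest, the X medians were 328, 393.5, 542 and 849 bp, against 230, 305, 434 and 727.5 bp. Width rose with strength on X, with a Spearman's rho of 0.67 over the 845 peaks, given as a description since both values come from the same reads.

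The widest X regions were not the most significant ones. The widest ran from 8017372 to 8024177 and measured 6806 bp. Its −log10 q was 51.7 for the combined data, 19.3 for replicate 1 and 13.3 for replicate 2. Inside it the strongest replicate peaks were 3030 and 1083 bp wide. The second ran from 6740431 to 6746020 with 86.4, 24.99 and 45.0, and the replicate 2 peak there, of 5563 bp, was nearly as wide as the combined peak of 5590 bp. The next were 6252063 to 6255998 (75.8, 23.2 and 36.0), 4523489 to 4527014 (53.9, 17.9 and 17.8) and 3114542 to 3117889 (80.5, 34.0 and 46.9). Of these 5 regions, 3 lay in the middle segment and 2 in the left segment. Of the 109 X peaks of 1 kb or more, 92 (84.4%) were supported by both replicates and 6 by neither. On II to V, both replicates supported 310 of the 339 such peaks and neither supported 2, so wide X peaks had the lower share of full support. This difference was not tested.

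Position along X was described in 3 segments of equal length between the outermost peak bases of the 3 lists. The left segment ran from 11109 to 5907564, the middle from 5907565 to 11804019 and the right from 11804020 to 17700474. They held 269, 284 and 292 combined peaks, or 31.8%, 33.6% and 34.6%. None of the shares passed the two-sided exact binomial test against an even division (adjusted p = 0.698, 0.884 and 0.698 over 3 segments). The middle share of X did not pass Fisher's exact test against the 35.8% of the background either (adjusted p = 0.279). In replicate 1 the segments held 159, 158 and 166 peaks, and in replicate 2 they held 120, 145 and 152.

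Support by both replicates did not differ along X past the threshold either. It was 37.5% in the left segment, 41.2% in the middle and 40.8% in the right, and each segment against the rest of X gave an adjusted p of 0.712 by Fisher's exact test. Support in replicate 1 alone was 18.2%, 10.9% and 13.7% from left to right, and support in replicate 2 alone was 5.58%, 7.75% and 10.3%. These last shares were not tested.

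**Figure D4:**
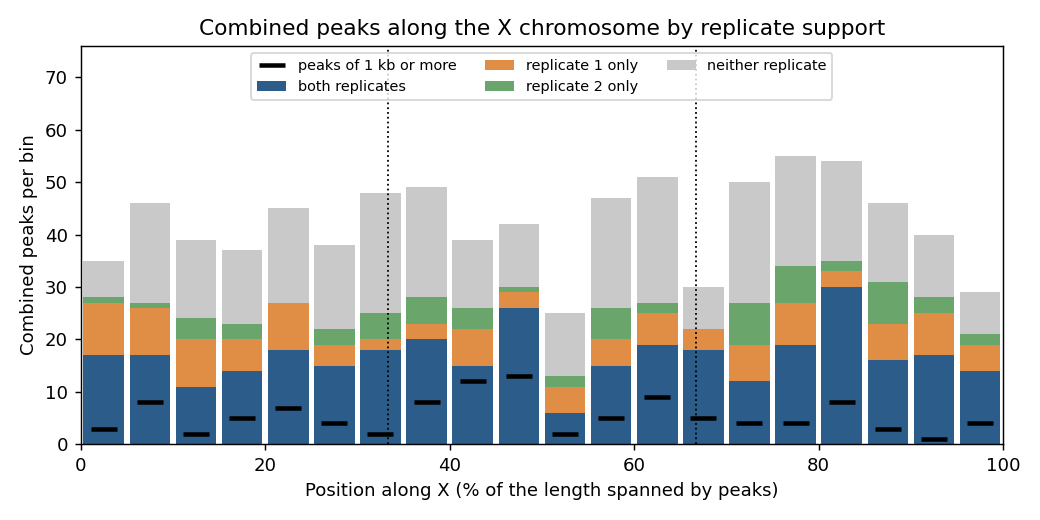
Number of combined peaks in 20 equal bins of 884 kb along X, as a percentage of the spanned length, stacked by replicate support, with black dashes for peaks of 1 kb or more and dotted lines between the segments. Bins hold 25 to 55 peaks, and the bins from 40% to 50% of the length hold 12 and 13 peaks of 1 kb or more, against a median of 4.5.

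In finer bins of 884 kb, X held 42.3 ± 8.34 combined peaks (SD, n = 20 bins). The sparsest bin, from 8855792 to 9740260, held 25 combined peaks, 11 replicate 1 peaks and 8 replicate 2 peaks, the lowest number of the chromosome in each list. The densest, from 13278134 to 14162601, held 55 combined peaks, of which 19 had support in both replicates. The neighbouring bin from 14162602 to 15047070 held 54, and 30 of them were supported by both replicates, the highest such number. In the replicate lists it held 33 and 33 peaks.

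Wide peaks were more frequent in the middle segment of X. There 53 of 284 peaks (18.7%, exact 95% interval 14.3 to 23.7) were 1 kb or more, against 10.0% in the rest of X (Fisher's exact test, adjusted p = 0.00207 over 3 segments). The shares were 11.2% in the left segment (adjusted p = 0.323) and 8.90% in the right (adjusted p = 0.0192), by the same exact test. The middle share was 17.7% in replicate 1 and 19.3% in replicate 2. In replicate 2 the left segment had 18.3%, and the middle did not pass against the rest of X (Fisher's exact test, adjusted p = 0.407). The call on the right segment held in neither replicate alone (adjusted p = 0.222 in replicate 1 and 0.304 in replicate 2, Fisher's exact test). With peaks joined over gaps of 2 kb or less, the middle segment had 33.7% against 24.5% in the rest of X (Fisher's exact test, adjusted p = 0.0540). Wide peaks were unevenly spread within the middle segment. The adjoining bins from 7086856 to 8855791 held 12 and 13 of them, among 39 and 42 peaks. The other bins wholly inside the segment held between 2 and 9.

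On the autosomes the middle segment had no such excess. The share of peaks of 1 kb or more in the middle segments of II to V was 6.89%, against the 18.7% of X (Fisher's exact test, adjusted p = 1.21e-08 over 3 segments, a comparison chosen after the values were seen). In the left segments the shares were 11.2% on X and 8.00% on II to V (adjusted p = 0.143), and in the right segments 8.90% and 8.95% (adjusted p = 1), by the same exact test. With a limit of 500 bp in place of 1 kb, X was above II to V in the left segment (47.6% against 32.5%, adjusted p = 5.56e-06) and in the right one (46.6% against 35.5%, adjusted p = 0.000505), by the same exact test. The middle segment of X also stood above that of II to V in replicate 1 (17.7% against 3.68%, adjusted p = 6.10e-09) and in replicate 2 (19.3% against 8.37%, adjusted p = 0.000732), by the same exact test. Chromosome II had the highest autosomal value in the middle, at 10.3%.

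In the combined list the strongest peaks fell in similar numbers in the segments of X, whereas on II to V pooled the middle segments held fewest of them. Of the 85 X peaks in the 10% of lowest q, 29 lay in the left segment, 29 in the middle and 27 in the right. On II to V the middle segments held 82 of 430 such peaks (19.1%), against 34.1% on X (exact 95% interval 24.2 to 45.2; Fisher's exact test, p = 0.00358, chosen after the values were seen). On the single autosomes the middle share ran from 13.5% on IV to 26.3% on V, and on V the left segment held fewest, with 27 against 30 in the middle and 57 in the right. In replicate 1 the middle share was 28.6% on X and 13.6% on II to V (p = 0.0176, Fisher's exact test), and in replicate 2 it was 28.6% and 13.7% (p = 0.0356). Within X the middle segment also held fewest of these peaks in each replicate. From left to right the counts were 17, 14 and 18 in replicate 1 and 14, 12 and 16 in replicate 2.

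**Figure D5:**
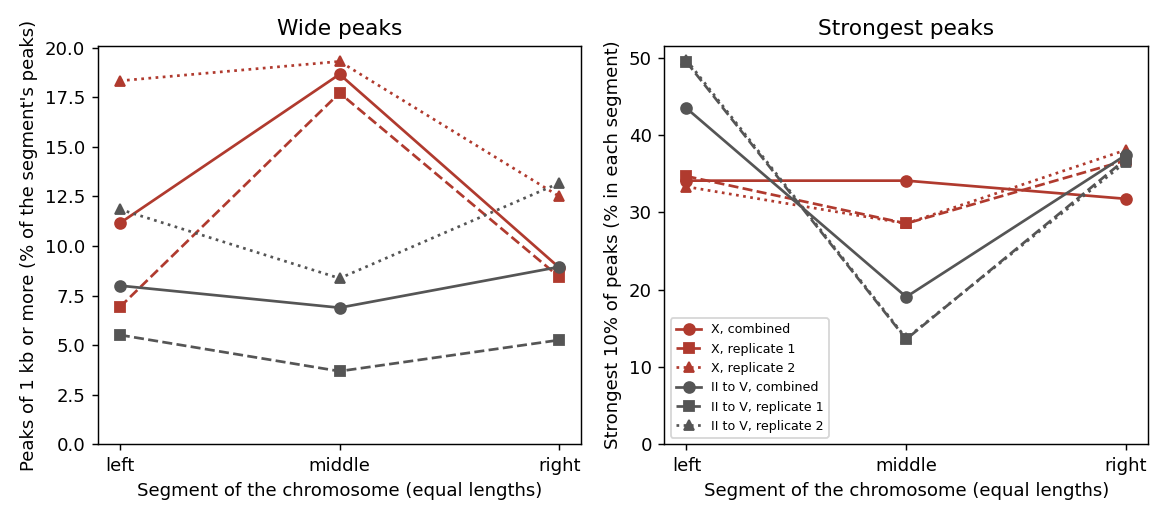
Share of peaks of 1 kb or more in each segment (%, left panel) and distribution of the 10% of peaks with the lowest q over the segments (%, right panel), for X (red) and II to V (grey) in the combined list (solid), replicate 1 (dashed) and replicate 2 (dotted). In the middle segment X stands above II to V in both panels and in each list, for example at 18.7% against 6.89% for wide peaks in the combined list.

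X peaks were spaced more widely than those of most autosomes. The median gap between neighbouring combined peaks was 8305.5 bp on X, with quartiles of 2368.5 and 27076 bp, against 6458.5 bp on II to V. Chromosome II had a longer median gap, at 9104 bp, and density was 47.8 peaks per Mb on X against 50.1 on II and 63.8 on II to V. In replicate 1 the X median gap was 18530.5 bp, the longest of the 5 chromosomes, and in replicate 2 it was 20701 bp, behind the 26818 bp of II. Density was lowest on X in replicate 1, at 27.3 peaks per Mb against at least 31.2 on each autosome. It was not in replicate 2, where X had 23.6 peaks per Mb, above II (20.0) and V (23.1). No X gap was shorter than 200 bp.

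Gaps of 2 kb or less made up 191 of 844 on X (22.6%, exact 95% interval 19.8 to 25.6), against 26.4% on II to V (Fisher's exact test, adjusted p = 0.0375). The share on II was lower still, at 21.1%, and the highest was 30.5% on III. The test was not adjusted for peak density. II was the sparsest autosome, with 50.1 peaks per Mb, and III the densest, with 93.6. Whether the difference goes beyond that in density was not tested. Without chromosome III the difference, X minus the autosomes, was -1.99 percentage points and did not pass (adjusted p = 0.237), and without chromosome IV it did not pass either (adjusted p = 0.0708, Fisher's exact test). In replicate 1 the shares were 13.9% and 21.98%, and in replicate 2 they were 14.4% and 19.1% (Fisher's exact test, adjusted p = 5.27e-05 and 0.0381).

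The longest gaps between combined peaks on X were also empty in the replicate lists, nearly all of whose X peaks had a combined peak. They ran from 6841177 to 7065906 (224730 bp), from 4715573 to 4893629 (178057 bp) and from 16414866 to 16590756 (175891 bp), and no peak of either replicate lay in them. At the other extreme, gaps of 2 kb or less joined 137 X peaks (16.2%) into 42 runs of 3 or more, 96 runs held 2 peaks, and 516 peaks stood alone. The share in runs of 3 or more lay between those of II (13.1%) and III (26.4%). The run with most peaks, from 13936624 to 13941586, held 5 peaks with a highest −log10 q of 5.81, and 1 of them was supported by both replicates. The run from 3110800 to 3117889 held 4 peaks with a highest value of 80.5, and includes the fifth widest region. The run from 14706867 to 14711497 held 4 peaks, 3 of them supported by both replicates, with a highest value of 61.9. Other runs also held 4 peaks, and those named here had the highest values among them. The next, from 8014305 to 8029764 in the middle segment, reached 51.7, and both replicates supported all 4 of its peaks.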

How the data were processed

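Peak lists of both anti-GFP ChIP replicates and a combined list were used. Peaks were called with PeakSeq on WormBase WS180, per the file headers, and each peak has a position and a q-value (a corrected p-value) that the authors deposited. How reads were aligned, how the caller was set and how the replicates were merged are steps not given in the sources used here. A stricter threshold or another depth would change both the number of peaks and their width.

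The −log10 q was computed from the deposited q-values. Shares were compared by two-sided Fisher's exact tests, and shares of peaks per segment by exact binomial tests, with Benjamini-Hochberg adjustment within each family. The 95% intervals of shares are exact binomial ones (Clopper-Pearson), which cover only counting error. Chromosome length was taken as the span of the peaks in the 3 lists. Tests were run with SciPy 1.17.1, tables were handled with pandas 2.3.3 and NumPy 2.4.6, and plots were drawn with matplotlib 3.10.9, under Python 3.11.15. The steps that assign support, count wide peaks and join peaks were run on simulated peaks placed well apart, an easier setting than these data. The counts of strongest peaks, of wide peaks by segment against II to V and of pairs were not tested in this way.

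Regions were named by rank: the 10 of lowest q and the 3 of highest q with support in both replicates, the 5 widest, the 3 of lowest q with support in neither replicate or in 1 replicate, the 3 widest gaps, the 3 runs with most peaks, and the strongest replicate peak without a combined peak. Runs with equal numbers of peaks were ranked by their highest −log10 q. Other regions and bins in the text were chosen after their values were seen. The members, lists and comparisons were chosen with earlier results of these data known. Alternatives included peak centres within 100 bp, a reciprocal overlap of 50%, only the 50% of combined peaks that are most significant, peaks of 50 bp or more, joining over 2 kb, other width limits, peaks with support in both replicates, each replicate alone, each autosome left out and lists of equal length. No WS180 genome was used here, so regions carry no gene names and no sequences.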

Additional observations from a re-analysis of the deposited data

Results flagged for a closer look

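Several values of X differed from those of II to V by a test of the difference, and all were chosen after the values were seen. Of the X peaks supported by a single replicate, 35.8% came from replicate 2, against 19.2% on II to V (Fisher's exact test, adjusted p = 1.79e-06). Of the pairs of overlapping replicate peaks, 52.2% on X and 68.4% on II to V had the lower q in replicate 1 (Fisher's exact test, p = 1.39e-08). The pairs and the single-replicate peaks rest on the same replicate lists and are not separate evidence. Of the strongest 10% of combined peaks, 34.1% on X and 19.1% on II to V lay in the middle segment (Fisher's exact test, p = 0.00358). In the middle segment, 18.7% of X peaks and 6.89% of peaks on II to V were 1 kb or more (Fisher's exact test, adjusted p = 1.21e-08).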

How the results depend on the processing

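Over 211 combinations of a result and an alternative, 173 kept the direction and the side of the 0.05 threshold. Values below are differences in percentage points, X minus II to V or a segment minus the rest of X, and except where a value shows it the cause was not tested. All alternatives run kept the call for replicate 1 support alone (-9.70 to -6.53), for single-replicate peaks from replicate 2 (13.0 to 32.7), for strongest peaks in the middle segment (12.3 to 18.0), for wide middle-segment peaks against II to V (3.19 to 21.6) and for pairs with lower q in replicate 1 (-16.9 to -14.6). Support in neither replicate was no longer past the threshold with 50% overlap (2.14), joining (3.69), equal lists (2.69), without III (2.38) or without IV (3.81), and was -0.0203 in the lowest 50% of q. Support in both was 5.89 and passed in the lowest 50% of q, and was -2.38 with equal lists. Middle-segment support in both turned to -2.37 with 50% overlap, -3.70 with centres and -0.604 in the lowest 50% of q. Replicate 2 support alone missed the threshold with 50% overlap (1.98) and centres (2.01). The middle share against II to V turned to 0.606 in the lowest 50% of q and 1.26 with support in both, and ran from 0.116 to 0.552 in single replicates. The middle share against an even division was -1.99 after joining and -0.621 to 1.44 in single replicates. Peaks of 1 kb or more against II to V were not past the threshold after joining (1.56). Within X, wide peaks in the middle segment missed it after joining (9.16) and at 500 bp (7.52), with 4.24 to 10.0 in single replicates. In the right segment they missed it after joining (-4.86), at 500 bp (-4.60) and at 2000 bp (-1.0002), with -6.37 to -3.87 in single replicates, and in the left segment the single replicates gave -6.04 to 2.51. Against II to V, the left segment was -3.53 after joining and 15.1, past the threshold, at 500 bp. The right segment was 11.1, past the threshold, at 500 bp, 0.133 at 2000 bp and 0.539 without II, and -0.676 to 3.18 in single replicates. Gaps of 2 kb or less missed the threshold among peaks with support in both (-4.47), without III (-1.99) and without IV (-3.61). Equal lists and single replicates hold fewer peaks. No paired analysis was possible because replicate numbers are shared only with input samples, which were not analysed here. Read depth is unknown, so its effect on weak peaks could not be measured.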
